A study of Mus musculus with 8 samples.

Results

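The semaphorins, plexins, neuropilins, Slits, Robos, netrins, Unc5 receptors and Dcc are the classical guidance ligands and receptors of growing axons and migrating cells. By gene symbol, 49 of the 32285 genes counted in the files belong to these families: 20 semaphorins, 9 plexins, 2 neuropilins, 3 Slits, 4 Robos, 4 netrins, 2 netrin-G genes, 4 Unc5 genes and Dcc. They were followed across the cell types of the mouse cerebral cortex and between wild type (WT) mice and mice heterozygous for Chd8 (Chd8het), the gene of a chromatin remodeller.

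Semaphorins are secreted or membrane-bound ligands; most class 3 members bind neuropilins that signal through A-type plexins, while other classes bind plexins directly. Slits are large secreted proteins that are read by Robo receptors and repel many axons that cross or run along the midline. Netrins attract through Dcc and repel where an Unc5 receptor takes part, and the netrin-G proteins are a separate, membrane-anchored branch found at synapses. In the adult brain these families also act on synapses, glia and vessels.

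Single-nucleus RNA was counted in 8 libraries, 1 per animal, from 4 WT and 4 Chd8het C57BL/6J mice at postnatal day (P) 25, with 2 males and 2 females of each genotype. Cerebral cortex without its medial part was frozen, and nuclei from all 8 animals were isolated side by side and captured with 10x 3' v3 chemistry. Per the labels the animals formed 4 pairs from shared litters and of the same sex; replicate 1 of each group was single-indexed and replicate 2 dual-indexed. The labels describe neither the Chd8 allele nor which libraries form a pair.

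After filtering, 78125 nuclei were kept, 7538 to 11034 per library. Before filtering the libraries held 69.5 to 98.1 M UMIs (unique molecular identifiers, counted molecules), and the kept nuclei held 60.2 to 86.0 M per library. Clusters were named by marker genes, so each cell type name below means resemblance to that type; 62792 nuclei (80.4%) fell into 23 named types, and the 19 types with no library below 30 nuclei were tested. Chd8 itself, over all nuclei, was at 76.1 (male 1), 82.7 (male 2), 79.4 (female 1) and 80.4 (female 2) counts per M UMIs (CPM) in WT, and at 76.3, 87.3, 77.1 and 76.2 CPM in the Chd8het libraries in that order. The genotypes overlapped, so this 3' count of an undescribed allele does not check the labels. Of the kept barcodes, 719 of 77398 distinct sequences occurred in more than 1 library. RNA from broken cells was present: Slc17a7, a transporter gene of excitatory neurons, was at 200.6 CPM in microglia and 220.7 CPM in L2/3 neurons. Low neuronal signals in glia and vessels are therefore given below as CPM and are not read as expression by those cells.

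Levels are CPM of the summed UMIs of a cell type, scaled between libraries, with mean, SD and range over all 8 libraries of both genotypes. They are descriptions without a test, since types are clusters of the same nuclei; the 49 genes themselves were kept out of the clustering. On this scale 46 of 49 genes reached a mean of 10 CPM in at least 1 of the 23 named types, and Ntn3, Ntn5 and Sema3b did not; Sema3f did so in striatal projection neurons and in mural nuclei but in none of the 19 tested types. Among the 46, the highest mean of the 19 tested types lay in an excitatory type for 11 genes, in an interneuron type for 10 and in a non-neuronal type for 25. For 23 genes all 8 libraries of the top type lay above all 8 of the next type. The split by class and this number were not counted over all genes. Neither is therefore shown to be particular to guidance genes. Nuclei of 4 rarer types (Car3 IT, mural, perivascular macrophage and striatal projection neurons) are given as values where they stand high. Their means rest on few nuclei. Mural nuclei were 398, 19 to 65 per library, and perivascular macrophages 176, 17 to 27 per library. Their sums went down to 0.0277 and 0.0293 M UMIs in a library. Means of striatal projection neurons are over the 6 libraries that held any.

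**Figure D1:**
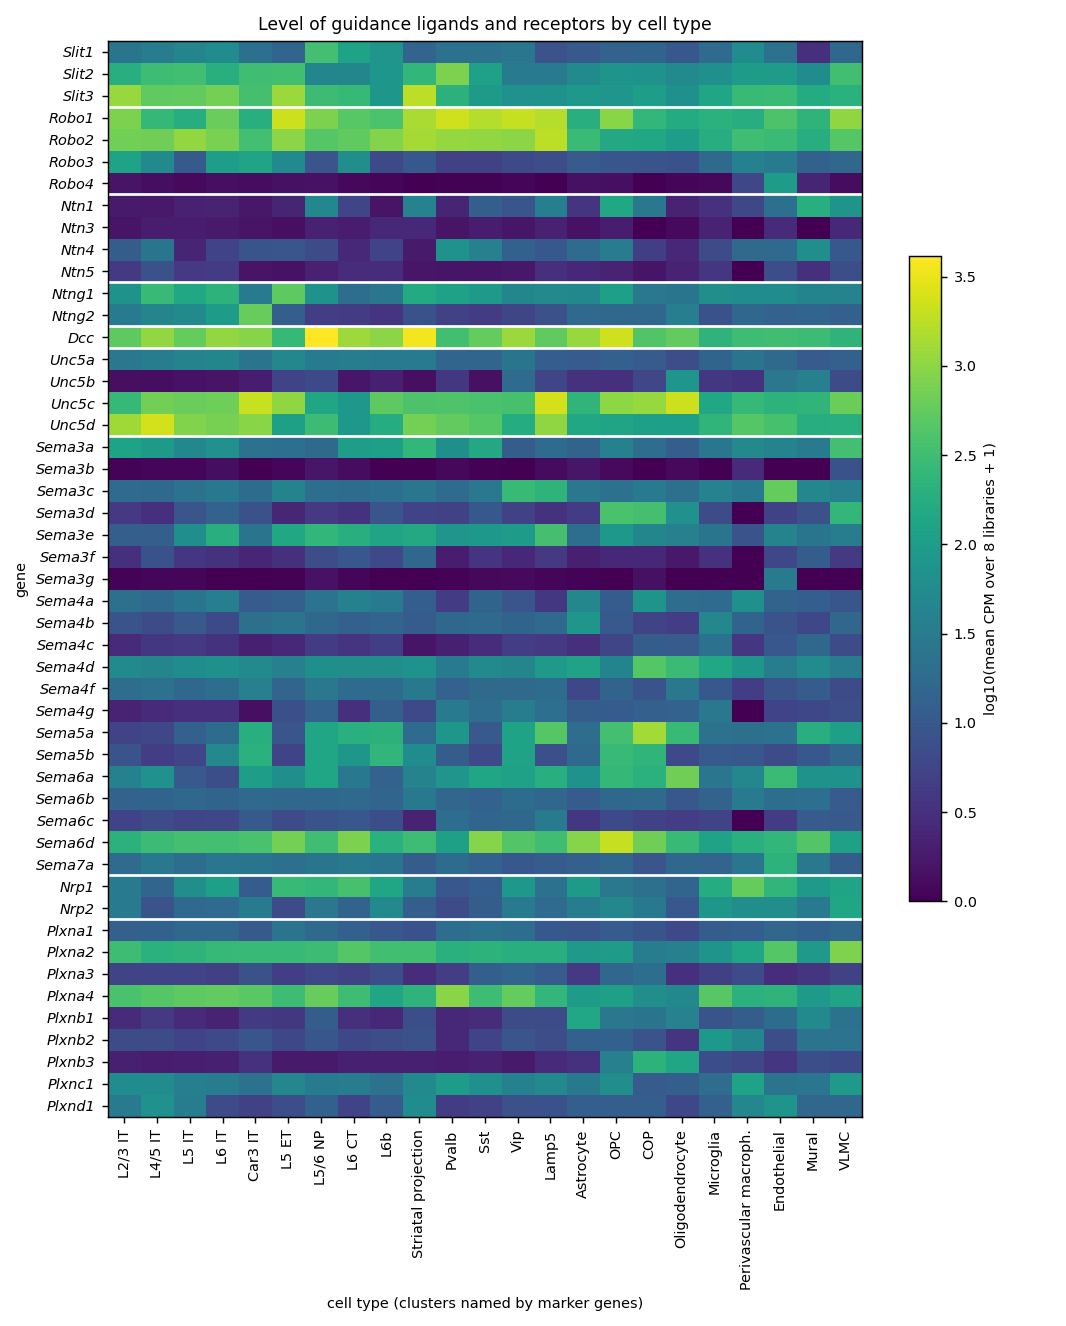
Mean level of the 49 guidance genes (rows, grouped by family) in 23 cell types (columns), as log10 of CPM + 1 over up to 8 libraries. Robo4, Sema3g and Plxnb3 are bright in few columns, whereas Robo1, Robo2, Dcc and Unc5c have means of at least 169, 105, 225 and 83.1 CPM in every type.

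The 3 Slit ligands were highest in different types, while several types carried more than 1 of them. Slit1 was highest in near-projecting neurons of layers 5 and 6 (L5/6 NP), with a mean of 344 CPM and 273, 363 and 383 CPM as the lowest, median and highest library. Corticothalamic neurons of layer 6 (L6 CT) followed at 122 CPM and L6b neurons at 76.0 CPM, whereas the thick-tufted L5 extratelencephalic (ET) neurons had 13.98 CPM. All 8 L5/6 NP libraries lay above every library of the other types.

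Slit2 was highest in Pvalb interneurons, the fast-spiking basket and chandelier cells. The lowest, median and highest of their libraries stood at 679, 781 and 973 CPM, mean 801. Next came intratelencephalic (IT) neurons of layer 5 at 334 CPM, L5 ET neurons at 333 CPM and fibroblast-like vascular and leptomeningeal cells (VLMC) at 331 CPM, whose ranges overlapped one another. The other interneurons were far lower, with 115 CPM in Sst, 29.5 CPM in Lamp5 and 29.1 CPM in Vip interneurons.

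Among the tested types, Slit3 was highest in L5 ET and L2/3 IT neurons. L5 ET neurons had a mean of 1192 CPM (861, 1124 and 1628 CPM as lowest, median and highest) and upper-layer L2/3 IT neurons 1155 CPM (881, 1125 and 1485 CPM), so these 2 types overlapped. Striatal projection neurons, which were 328 nuclei with 0 to 130 per library, had a mean of 1775 CPM over 6 libraries (387 to 2564 CPM). The lowest of these, Chd8het male 1, held 1 such nucleus. L6b neurons had 80.7 CPM and L6 CT neurons 268 CPM, below the 296 CPM of endothelial nuclei. Means in the other low types included 211 CPM in Pvalb interneurons, 67.2 CPM in Vip interneurons and 64.7 CPM in oligodendrocytes.

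Robo1 and Robo2, the main neuronal Slit receptors, were counted in every type, with the highest means in interneurons. Robo1 had means of 2234 CPM in Pvalb interneurons (2098, 2220 and 2416 CPM), 2222 CPM in L5 ET neurons, 1958 CPM in Vip, 1653 CPM in Sst and 1628 CPM in Lamp5 interneurons. Pvalb and L5 ET libraries overlapped, and the lowest means were in oligodendrocytes at 169 CPM and, in contrast to L5 ET neurons, in L5 IT neurons at 178 CPM. Robo2 was highest in Lamp5 interneurons at 1829 CPM (1657, 1844 and 1982 CPM), with no library of another tested type reaching their range. Pvalb interneurons followed at 1093 CPM, L5 IT neurons at 1066 CPM and Sst interneurons at 1060 CPM, within each other's spread.

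Robo3 was uneven over types and Robo4 narrow. Robo3, a divergent receptor known from commissural axons, stood at 122 CPM in L2/3 IT neurons (100, 122 and 148 CPM) and 104 CPM in L6 IT neurons, at 129 CPM in the 205 Car3 IT nuclei and at 60.3 CPM in L6 CT, 52.5 CPM in L5 ET and 50.9 CPM in L4/5 IT neurons. Endothelial nuclei had 28.9 CPM, and 8 of the 19 tested types reached 10 CPM. L5 IT neurons were at 9.71 CPM and Pvalb interneurons at 4.21 CPM, so the IT layers did not share it evenly. Robo4, the endothelial member, stood at 94.3 CPM in endothelial nuclei (51.4, 90.4 and 145 CPM; 17.9% of these nuclei had a UMI) and at 0.574 CPM in the next tested type, L2/3 IT neurons.

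These 2 receptors, with different leading cell types, are neighbours in the genome. On chromosome 9 of GRCm38, Robo4 spans 37401897 to 37415115 on the plus strand and Robo3 37415669 to 37433246 on the minus strand, with 553 bases between their 3' ends. Their starts lie at the outer ends of the pair, and the sequence just before each start is shown to let the promoters be compared. From the RefSeq promoter table (GRCm38.p6) 150 bases are printed, beginning 250 bases before the RefSeq start, which is not the end of the annotated span given above. GGAA, the core of ETS factor motifs, is in capitals. The Robo3 window is chr9:37433276-37433425, minus strand, and the Robo4 window chr9:37401722-37401871, plus strand.
Robo3: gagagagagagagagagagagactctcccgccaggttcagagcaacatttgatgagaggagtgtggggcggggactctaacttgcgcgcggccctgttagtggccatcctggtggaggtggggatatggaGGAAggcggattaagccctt
Robo4: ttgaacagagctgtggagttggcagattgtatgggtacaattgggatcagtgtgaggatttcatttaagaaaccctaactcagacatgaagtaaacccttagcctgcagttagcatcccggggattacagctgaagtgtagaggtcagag
The Robo3 window held 6 CG dinucleotides and 58.0% G and C, and the Robo4 window 1 CG and 45.3% G and C. Among 32851 promoters the same window held at least 6 CG in 32.3% and at least 1 in 84.0%. GGAA, searched on both strands (as GGAA or TTCC), occurred 1 time in the Robo3 window and 0 times in the Robo4 window, against 81.7% of all promoters with at least 1 match. These letters describe the windows only.

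**Figure D2:**
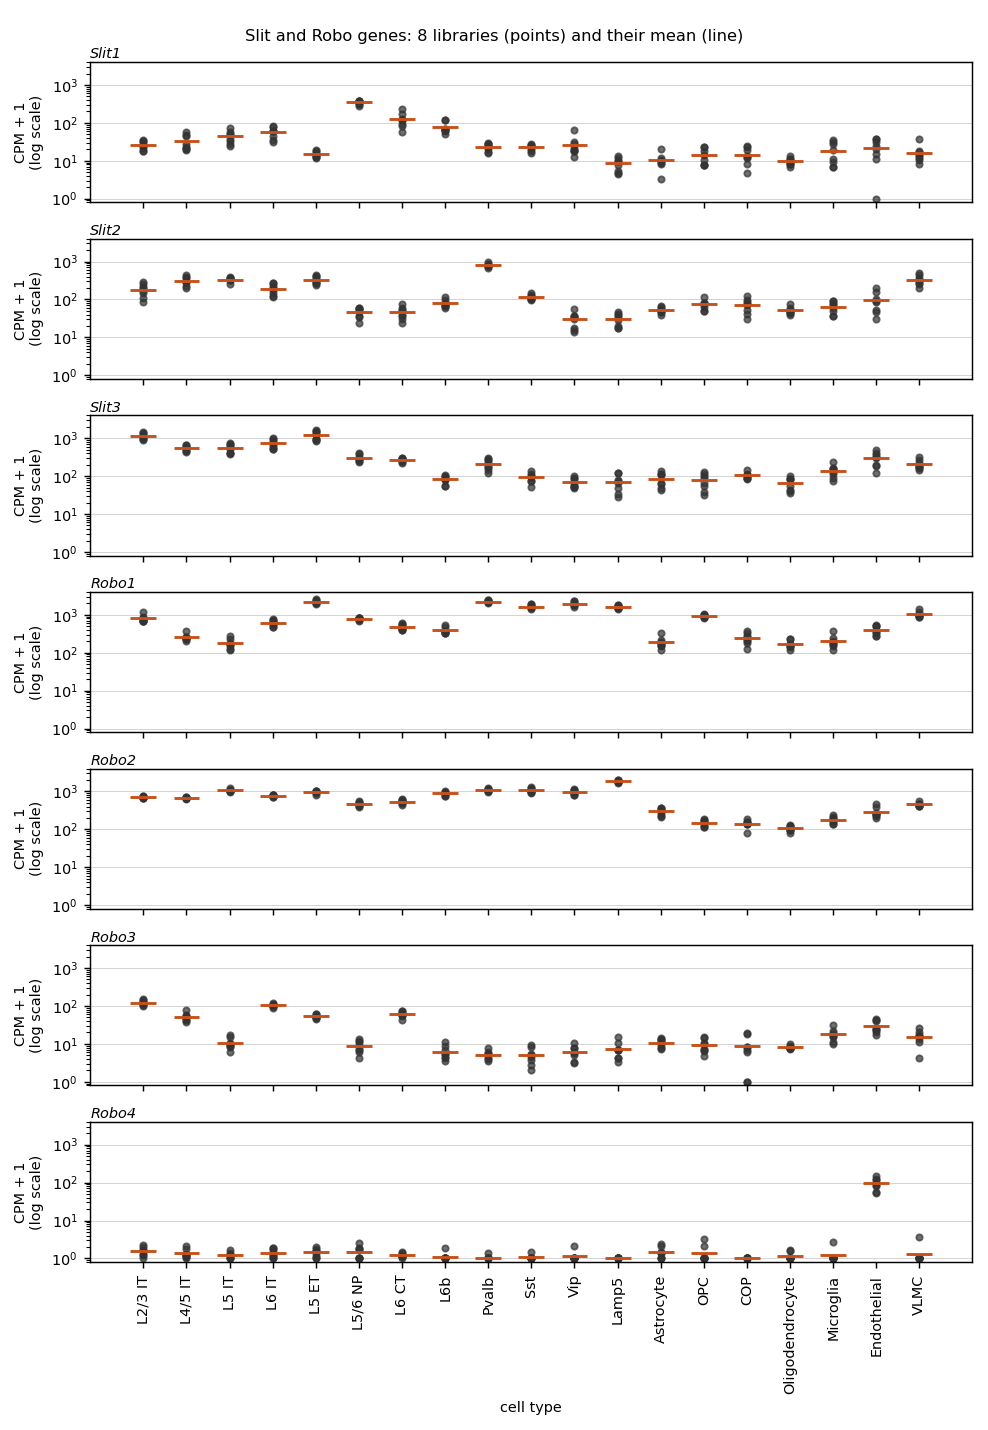
Level of each Slit and Robo gene in 19 tested cell types, as CPM + 1 on a log axis; each point is 1 of 8 libraries and each bar the mean. Slit2 peaks in Pvalb interneurons at 801 CPM, Robo2 in Lamp5 interneurons at 1829 CPM, and Robo4 rises above 1 CPM in endothelial nuclei with 94.3 CPM.

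Netrin ligands came from few types. Ntn1, the classical midline attractant, had its highest tested mean in oligodendrocyte precursor cells (OPC) at 144 CPM (113, 142 and 175 CPM) and stood at 187 CPM in mural nuclei. VLMC followed at 74.6 CPM and L5/6 NP neurons at 47.0 CPM, while L6b neurons had 0.554 CPM. Ntn4, a netrin of basement membranes, was at 69.8 CPM in Pvalb interneurons (50.2, 74.8 and 80.9 CPM), 62.2 CPM in mural nuclei and 37.2 CPM in Sst interneurons, against 1.37 CPM in L5 IT neurons.

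The membrane-anchored pair Ntng1 and Ntng2 had their highest means in different projection neurons, and both were counted in L6 IT and L4/5 IT neurons. Ntng1 was highest in L5 ET neurons at 525 CPM (441, 509 and 619 CPM), with L4/5 IT neurons at 285 CPM and L6 IT neurons at 217 CPM, and L6 CT neurons were lowest at 19.1 CPM. Ntng2 stood at 587 CPM in Car3 IT nuclei (264, 522 and 932 CPM), which exceeded every library of the tested types, of which L6 IT neurons were highest at 94.8 CPM and L4/5 IT neurons had 43.6 CPM.

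Dcc, the netrin receptor, was highest in L5/6 NP neurons at 4136 CPM (3793, 4179 and 4519 CPM). OPC followed at 2252 CPM (2012, 2227 and 2538 CPM), and striatal projection neurons stood at 3575 CPM. L6 CT neurons at 1240 CPM and Vip interneurons at 1184 CPM overlapped, and microglia were lowest at 225 CPM. L5/6 NP neurons therefore led for a Slit ligand and for the netrin receptor, 2 genes of separate pathways.

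The Unc5 receptors had different highest types, with some types high for more than 1 of them. Unc5c was highest in Lamp5 interneurons at 2388 CPM (2018, 2458 and 2543 CPM) and in mature oligodendrocytes at 2206 CPM (1648, 2109 and 3087 CPM), which overlapped, and lowest in L6 CT neurons at 83.1 CPM. Unc5d was highest in L4/5 IT neurons at 2356 CPM (1786, 2348 and 3034 CPM), then L2/3 IT neurons at 1279 CPM and Lamp5 interneurons at 1025 CPM, and L6 CT neurons were low again at 84.7 CPM. Unc5b stood at 77.6 CPM in oligodendrocytes (69.97, 78.5 and 85.3 CPM), 36.5 CPM in mural and 25.7 CPM in endothelial nuclei. Unc5a reached 45.7 CPM in L5 ET and 44.6 CPM in L6 IT neurons.

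The secreted class 3 semaphorins had different leading types, among them VLMC and endothelial nuclei. Sema3a, the collapsin of growth cones, was highest in VLMC at 347 CPM (266, 351 and 478 CPM), then Sst interneurons at 150 CPM and L2/3 IT neurons at 122 CPM. Sema3c stood at 572 CPM in endothelial nuclei (435, 542 and 764 CPM) and at 282 CPM in Vip and 224 CPM in Lamp5 interneurons, against 17.1 CPM in Pvalb interneurons. Sema3d led in OPC and in committed oligodendrocyte precursors (COP), and Sema3e in Lamp5 interneurons at 359 CPM (235, 354 and 463 CPM), with L5/6 NP neurons at 246 CPM. Sema3g, a vascular semaphorin, was at 29.3 CPM in endothelial nuclei, from 0 to 62.7 CPM over libraries with a UMI in 5.52% of nuclei. Sema3f did not exceed 8.52 CPM in a tested cortical neuron type, where L6 CT was highest, and stood at 15.7 CPM in striatal projection neurons.

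Of the semaphorins of classes 4 to 7, all but Sema4g and Sema6c had their highest tested mean outside neurons, for some of them narrowly. Sema4f stood at 27.4 CPM in oligodendrocytes and 27.0 CPM in L5/6 NP neurons, which overlapped, and at 36.4 CPM in Car3 IT nuclei. Sema5b stood at 279 CPM in OPC and 239 CPM in L6b neurons, also with overlap. Sema4b stood at 81.4 CPM in astrocytes (67.4, 84.7 and 95.2 CPM), Sema4c at 21.5 CPM in microglia, and Sema7a, a lipid-anchored semaphorin, at 220 CPM in endothelial nuclei (103, 220 and 362 CPM) against 27.6 CPM in L6 CT neurons. Sema6d had its highest mean in OPC at 2003 CPM (1679, 1948 and 2304 CPM), with Sst interneurons at 919 CPM and astrocytes at 915 CPM and Pvalb interneurons lowest at 112 CPM. Sema4g stood at 31.7 CPM in Vip and 30.7 CPM in Pvalb interneurons, and Sema6c reached 31.0 CPM in Lamp5 interneurons. Sema6b was at 19.4 CPM in endothelial nuclei and 17.7 CPM in Vip interneurons, which overlapped.

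Neuropilins and plexins, the semaphorin receptors, were spread over all classes. Nrp1, which also binds VEGF, was at 369 CPM in L6 CT neurons (224, 378 and 516 CPM), 269 CPM in L5 ET neurons, 248 CPM in L5/6 NP neurons, 241 CPM in endothelial nuclei and 569 CPM in perivascular macrophages, and lowest in Pvalb interneurons at 8.72 CPM. Nrp2 led in VLMC at 131 CPM, with microglia at 81.3 CPM. Plxna4, a neuropilin partner in Sema3a signalling, was highest in Pvalb interneurons at 942 CPM (730, 936 and 1141 CPM), then L5/6 NP neurons at 600 CPM and Vip interneurons at 577 CPM. Plxna2 was highest in VLMC at 822 CPM (386, 789 and 1149 CPM), with L6 CT neurons and endothelial nuclei both at 460 CPM.

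B-type plexins were highest in glia, microglia included. Plxnb1, a Sema4d receptor, stood at 147 CPM in astrocytes (113, 147 and 174 CPM), above 51.3 CPM in mural nuclei and 1.23 CPM in L6 IT neurons. Plxnb2 was highest in microglia at 84.1 CPM (52.3, 89.1 and 104 CPM). Plxnb3 was highest in the oligodendrocyte lineage, at 216 CPM in COP, 136 CPM in oligodendrocytes and 36.6 CPM in OPC; the next type, mural nuclei, had 6.396 CPM and L2/3 IT neurons 1.07 CPM. Of the remaining plexins, Plxnd1 stood at 74.1 CPM in endothelial nuclei and 66.6 CPM in L4/5 IT neurons, Plxnc1, a Sema7a receptor, at 125 CPM in perivascular macrophages and 94.4 CPM in Pvalb interneurons, and Plxna1 and Plxna3 at 23.8 CPM in L5 ET neurons and 18.98 CPM in COP.

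Types of the oligodendrocyte lineage, in which precursors (OPC) pass through committed precursors (COP) to myelinating oligodendrocytes, differed in the semaphorins they carried. OPC were highest in Sema6d, Ntn1 and Sema5b, which were at 2003, 144 and 279 CPM there and at 275, 1.26 and 5.26 CPM in oligodendrocytes. Sema5b averaged 234 CPM in COP, within the OPC range of 210 to 378 CPM. Sema5a and Sema4d were highest in COP. Sema5a was at 346 CPM in OPC, 1289 CPM in COP (869, 1304 and 1720 CPM) and 285 CPM in oligodendrocytes, and Sema4d at 41.8, 459 and 294 CPM in the same order. Sema4a, at 10.4, 73.0 and 18.5 CPM, had the same order of types as Sema4d.

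Oligodendrocytes were highest in Sema6a and Unc5b. Sema6a was at 259 CPM in OPC and 680 CPM in oligodendrocytes (563, 617 and 912 CPM), and Unc5b at 2.07, 4.87 and 77.6 CPM in OPC, COP and oligodendrocytes. Sema3d was alike in OPC (377 CPM; 312, 362 and 507 CPM) and COP (357 CPM) and at 66.3 CPM in oligodendrocytes. Dcc was at 2252 CPM in OPC, 435 CPM in COP and 555 CPM in oligodendrocytes, where the last pair overlapped.

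**Figure D3:**
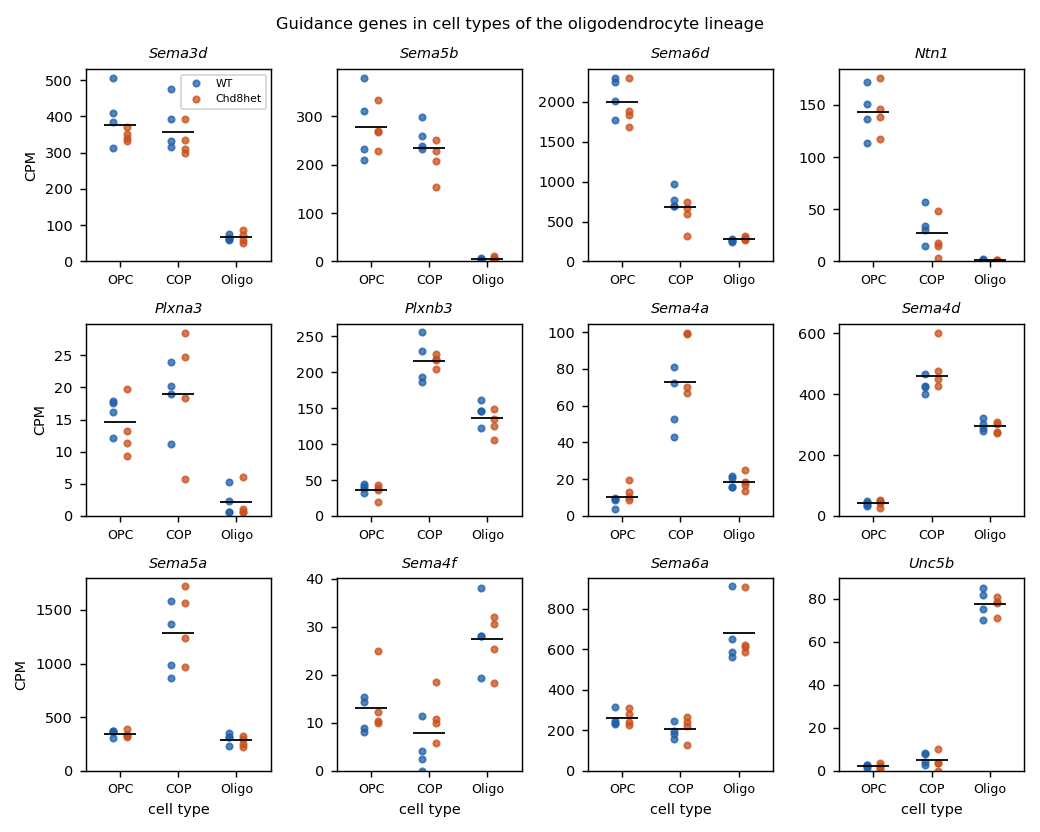
Level (CPM, linear axes from 0) of 12 guidance genes in oligodendrocyte precursors (OPC), committed precursors (COP) and oligodendrocytes; points are libraries coloured by genotype and black bars are means of 8 libraries. Plxnb3, Sema4a, Sema4d and Sema5a peak in COP, at 216, 73.0, 459 and 1289 CPM, and Unc5b is highest in oligodendrocytes, at 77.6 CPM.

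Several named types were made of more than 1 cluster, and guidance genes differed between those clusters, given here as CPM without scaling between libraries. Of the L2/3 IT clusters, that led by Robo3 itself had 186 CPM of Robo3 against 71.8 CPM in the other, and 403 against 1116 CPM of Robo1. In L4/5 IT neurons the smaller cluster, led by Scn7a, had 518 against 216 CPM of Slit2, 490 against 184 CPM of Ntng1 and 110 against 44.9 CPM of Plxnd1, but 9.97 against 71.2 CPM of Robo3 and 1400 against 2819 CPM of Unc5d. Astrocytes of the smaller cluster, led by Thbs4, Myoc and Gfap, had 195 against 14.6 CPM of Nrp2 and 761 against 241 CPM of Robo2.

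Oligodendrocytes of a smaller cluster led by Cnksr3 and St18 had 754 against 103 CPM of Sema5a, 619 against 169 CPM of Sema4d, 1492 against 362 CPM of Sema6a and 80.8 against 6.71 CPM of Sema4f. Sema5a and Sema4d are the genes that were also highest in COP. VLMC split into a cluster led by Slc47a1 and Bnc2, with 828 CPM of Slit2, 229 CPM of Ntn1 and 566 CPM of Sema3d, and a cluster led by Slc6a20a and Slc6a13 with 84.7, 6.85 and 92.3 CPM of these ligands. Robo1 and Plxna2 were the other way round, at 574 and 470 CPM in the former and 1236 and 974 CPM in the latter. A cluster of 86 Sst interneurons led by Tacr1, Nos1 and Chodl had 218 CPM of Ntn1 against 2.11 CPM in the other Sst cluster, and 2116 against 376 CPM of Unc5d.

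Chd8het and WT were compared in each of the 19 types with the edgeR quasi-likelihood test on summed counts, with sex in the model and Benjamini-Hochberg adjustment over all genes of a type. Of the 49 genes, 46 passed the count filter in at least 1 type (not Ntn3, Sema3b and Sema3g), which gave 632 tests of a gene in a type. None was called at an adjusted p of 0.05, and neither was any of the 201529 tests of all genes, a percent called of 0. At an unadjusted p under 0.05 stood 45 of the 632 tests (7.12%), 35 higher and 10 lower in Chd8het, against 2.48% of all genes' tests, and 1.39% for the higher direction alone. DESeq2's Wald test called 0 of the 632, with 32 (5.06%) at an unadjusted p under 0.05, against 0.00496% called and 1.12% at that p over all genes.

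With a term for each of the 4 pairs of the same sex and replicate number in place of sex, a replicate block, 0 of 632 were called again and 115 (18.2%) had an unadjusted p under 0.05, against 0.0268% called and 6.3% at that unadjusted p over all genes. Of the 115, 77 were higher in Chd8het, a direction and p that 3.23% of all genes' tests shared. In all 4 of these pairs Chd8het was higher in 74 tests (11.7%; 6.86% over all genes) and lower in 46 (7.28%; 7.36%). Among genes tested in all 19 types, 6 of 10 members were higher in all 4 pairs in 1 type and lower in all 4 in another, as were 39.9% of all genes. All 4 Chd8het libraries lay above all 4 WT libraries in 10 tests (1.58%; 1.05% over all genes) and below them in 4 (0.633%; 0.96%). The median log2 change, Chd8het minus WT, was 0.05 over the 632 tests and 0.00 over all genes. Tests of 1 gene in several types share the same animals and the same free RNA and are not independent.

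**Figure D4:**
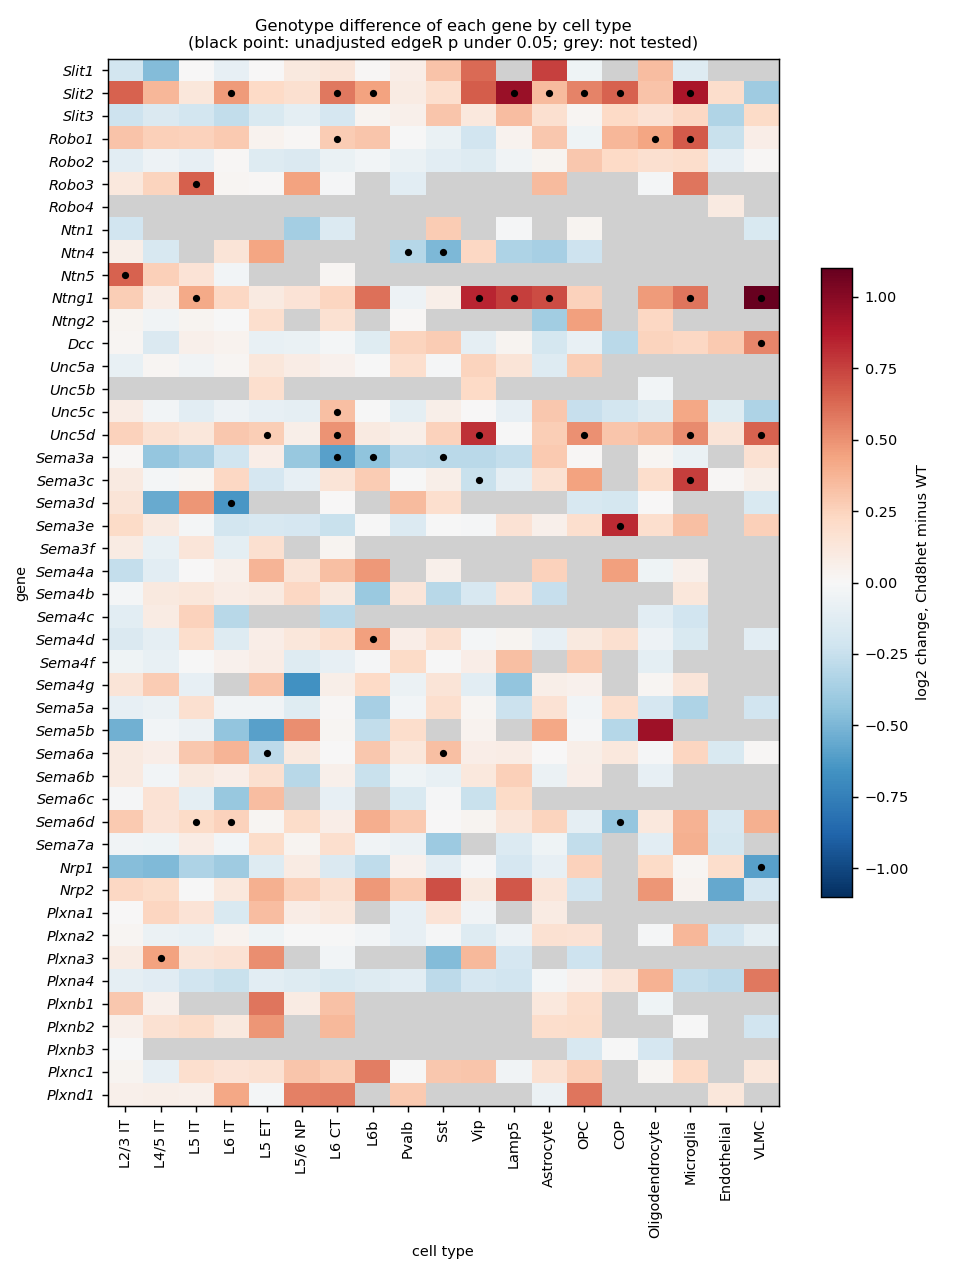
Log2 change of the tested guidance genes (rows), Chd8het minus WT, in 19 cell types (columns); grey cells were not tested and black dots mark an unadjusted p under 0.05 (edgeR), of which there are 45. None passed adjustment; the dots of Slit2, Unc5d and Ntng1 recur across columns.

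Over all nuclei of a library together, 0 of the 49 genes were called (0 of all genes, percent called 0) and 2 had an unadjusted p under 0.05 (1.39% of all genes did): Ntng1, with a log2 change of 0.26, and Sema6d, with 0.15. With the pair term 0 were called (0 of all genes) and 8 had such a p, against 6.38% of all genes; DESeq2 called 0 of the 49 (0.0141% of all genes), with 1 at such a p (1.4% of all genes). In this sum, fewer nuclei of a type and less RNA per nucleus cannot be told apart. The sum also held 15333 nuclei of unnamed clusters, from 936 in WT male 1 to 3637 in Chd8het male 2. The part of unnamed nuclei in these values was not tested. L5 ET neurons, where Ntng1 is highest, made up 4.32% of the named nuclei of Chd8het and 3.55% of those of WT on the mean, with an adjusted p of 0.658 by an exact permutation test (unadjusted two-sided p 0.0286, the smallest it can give), and their part in the Ntng1 value was not tested. Robo2 was the gene whose groups did not overlap there, with WT between 738 and 762 CPM and Chd8het between 678 and 733 CPM, a log2 change of -0.09; 0.679% of all genes lay below in this way.

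Slit2 was the member with an unadjusted p under 0.05 in the most types, each time with a higher mean in Chd8het. It lies on chromosome 5 (GRCm38, 47983138 to 48307733). In microglia it was at 35.5, 34.9, 59.9 and 48.9 CPM in WT, in the order male 1, male 2, female 1, female 2 that is used from here on, and at 76.2, 77.2, 91.5 and 87.7 CPM in Chd8het. All 4 Chd8het libraries lay above all WT libraries, and the log2 change was 0.90 (SE 0.19, unadjusted p 0.000258, adjusted p 1 by edgeR; 0.062 with the pair term). Single-indexed libraries alone gave 0.81 and dual-indexed ones 0.97. The microglial level rests on 357 Slit2 UMIs over all 8 libraries, with a UMI in 8.79% of the nuclei.

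The sums of 5 excitatory marker genes in the same microglia were 350.7 to 499.2 CPM in WT (mean 425.8) and 389.5 to 526.9 CPM in Chd8het (mean 478.5), with 3 of 5 genes higher and none at 0. For 5 inhibitory markers they were 51.8 to 74.0 CPM in WT and 52.3 to 84.5 CPM in Chd8het. The sum of 8 markers of Pvalb interneurons, where Slit2 is highest, was 139.4 to 194.4 CPM in WT (mean 168.4) and 192.2 to 232.8 CPM in Chd8het (mean 208.8), with 6 of 8 genes higher and none at 0. Their part in the microglial Slit2 value was not tested.

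Slit2 differed in the same direction in Lamp5 interneurons, at 18.6, 17.0, 16.6 and 27.5 CPM in WT and 32.7, 40.9, 37.9 and 44.4 CPM in Chd8het. Here too the groups did not overlap, with a log2 change of 0.95 (SE 0.22, unadjusted p 0.000554, adjusted p 1 by edgeR). With predicted doublets kept in, the change was 0.33. Lamp5 interneurons held 237 Slit2 UMIs over all 8 libraries, with a UMI in 12.49% of the nuclei. Excitatory marker sums in these nuclei ranged from 91.4 to 144.2 CPM in WT and from 97.8 to 187.5 CPM in Chd8het, all 5 genes higher on the mean. Markers of Pvalb interneurons, where Slit2 is highest, averaged 437.7 CPM in WT and 428.0 CPM in Chd8het there, 2 of 8 higher and 6 lower, and the part of either list in the result was not tested.

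In L6 CT neurons Slit2 was at 28.7, 23.3, 57.2 and 36.1 CPM in WT and 38.4, 47.4, 73.2 and 52.4 CPM in Chd8het, and in OPC at 60.8, 49.6, 81.2 and 49.2 CPM against 75.6, 73.2, 116 and 81.6 CPM. In both types the groups overlapped while Chd8het was higher in all 4 pairs, with log2 changes of 0.58 and 0.55. The Pvalb marker sum of L6 CT neurons averaged 65.2 CPM in WT and 73.1 CPM in Chd8het (7 of 8 genes higher, 1 lower). Their inhibitory sum averaged 14.4 and 14.6 CPM (3 of 5 higher, 2 lower). L6 CT neurons were 2 clusters, the smaller of which made up 6.38 to 19.8% of them in WT and 6.84 to 33.2% in Chd8het; the WT and Chd8het means of Slit2 were 37.3 and 53.0 CPM in the larger and 26.2 and 59.6 CPM in the smaller. WT and Chd8het means were also 162 and 218 CPM in L6 IT neurons and 142 and 222 CPM in L2/3 IT neurons. The groups overlapped in L6 IT neurons, at 113 to 263 CPM in WT and 174 to 272 CPM in Chd8het. L2/3 IT neurons had 166, 84.9, 208 and 107 CPM in WT and 255, 194, 293 and 147 CPM in Chd8het. These groups overlapped too, and the unadjusted p by edgeR was not under 0.05. In Pvalb interneurons, the type with the highest level, the WT and Chd8het means were 780 and 823 CPM, a log2 change of 0.09. The excitatory marker sum of OPC averaged 213.9 CPM over WT libraries and 245.4 CPM over Chd8het libraries, with 5 of 5 genes higher. The inhibitory sum averaged 67.9 and 83.7 CPM (5 of 5 higher), and the Pvalb marker sum 2128 and 2030 CPM (4 of 8 genes higher, 4 lower). The L4/5 IT marker sum of OPC averaged 2630 CPM in WT and 2424 CPM in Chd8het. In WT the L4/5 IT list averaged 1525 CPM in L2/3 IT neurons, and the Pvalb list 2897 CPM in Pvalb interneurons themselves. With sums this high in OPC, these 2 lists do not gauge RNA of other cells there. The part of all these lists was not tested.

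Counted over types, the Slit2 mean was higher in Chd8het in 18 of 19, where 3.46% of the 2483 genes tested in all types reached that number. Slit2 had an unadjusted p under 0.05 in 8 types and was higher in all 4 pairs in 11; 0.161% of the 2483 genes, Slit2 among 4, reached each of these. The exception was VLMC, with means of 375 CPM in WT and 287 CPM in Chd8het (log2 change -0.39, unadjusted p 0.112 by edgeR). There the Slit2-rich cluster led by Slc47a1 made up 26.4 to 38.2% of VLMC in WT and 19.4 to 31.4% in Chd8het. Within the Slit2-poor VLMC cluster, Slit2 was at 54.8 to 82.0 CPM in WT and 85.6 to 113.7 CPM in Chd8het. Within the Slit2-rich cluster it was at 583.8 to 1111 CPM in WT (mean 893) and 634.3 to 1029 CPM in Chd8het (mean 763), which overlapped. Slit2 is 1 of 17 members that overlap another counted gene, in its case 4930518C09Rik and Gm20475; Slit3, Plxna4, Ntn1, Ntng2, Sema3e, Sema6d and Unc5c are others. Slit2, Slit3, Ntn1 and Ntng2 each overlap a gene on the same strand, where a strand setting does not tell reads apart. Plxna4, Sema3e, Sema6d and Unc5c overlap counted genes on the other strand only. For these the setting matters, and it is not stated.

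**Figure D5:**
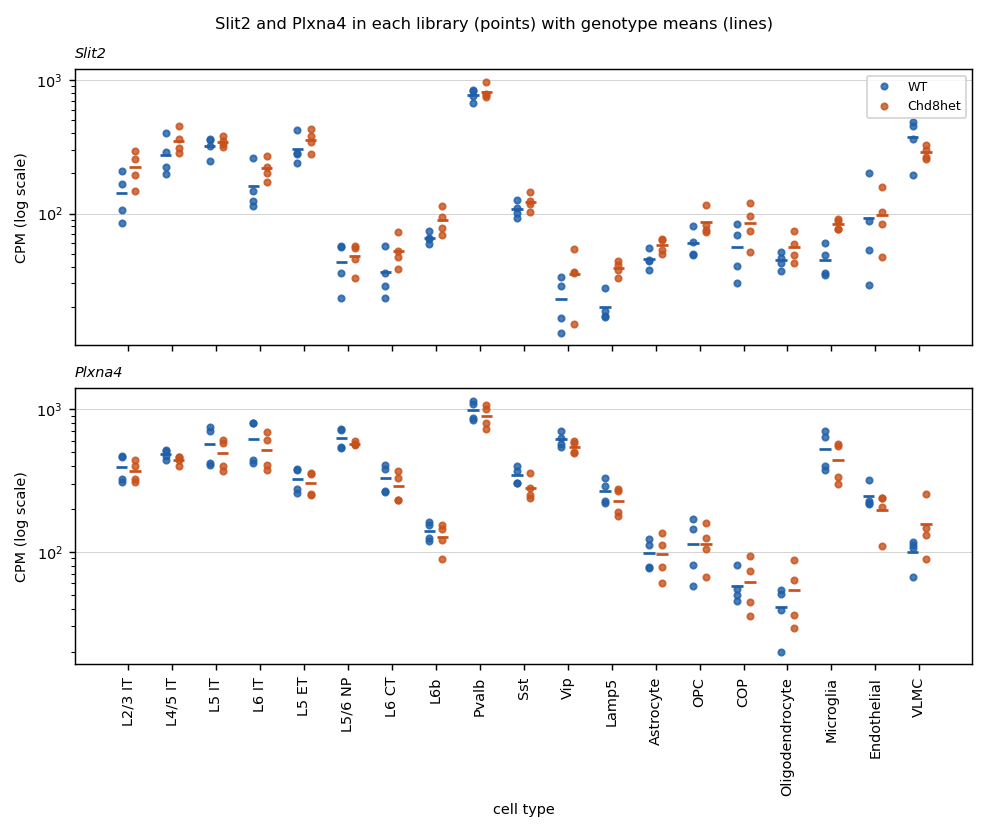
Level of Slit2 (top) and Plxna4 (bottom) by cell type, in CPM on a log axis; each point is 1 library, WT and Chd8het side by side. For Slit2 the Chd8het points do not overlap WT in microglia and Lamp5 interneurons; the Plxna4 points of both genotypes overlap in every type.

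Slit3 and Plxna4 were lower in Chd8het in some types, with no unadjusted p under 0.05 in the model with sex. The fitted log2 change of Slit3 was above 0 in 11 of 19 types, with a median of 0.03. It was lower in all 4 pairs in 7 types, which were all excitatory types but L6b, and 3.26% of the genes tested in all types reached that number. In L6 CT neurons its values were 273, 297, 276 and 300 CPM in WT and 226, 268, 237 and 266 CPM in Chd8het, groups that did not overlap, with a log2 change of -0.19. Plxna4 was lower in all 4 pairs in 10 types, a number that 0.805% of those genes reached, and its mean was lower in 15 of 19 (14% of genes). In Sst interneurons it was at 302, 368, 302 and 401 CPM in WT and 237, 280, 251 and 355 CPM in Chd8het, a log2 change of -0.29 with an unadjusted p of 0.0655 without and 0.00149 with the pair term (edgeR).

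Both genes also split by replicate number, which is index type in these libraries. Slit3 in L5 ET neurons was at 940, 1628, 927 and 1525 CPM in WT and at 861, 1308, 918 and 1432 CPM in Chd8het, so that all 4 dual-indexed libraries exceeded all 4 single-indexed ones. For Plxna4 in L6 IT neurons the values were 422, 804, 442 and 797 CPM in WT and 376, 692, 404 and 605 CPM in Chd8het, with the same separation. Slit2 also differed by replicate number, with replicate 1 above replicate 2 in each sex and genotype in L2/3 IT and L4/5 IT neurons. In L4/5 IT neurons it was at 289, 197, 401 and 223 CPM in WT and 362, 286, 451 and 313 CPM in Chd8het. Index type and litter cannot be told apart here; each genotype and sex had 1 library of either index type.

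Ntng1, the netrin-G1 gene on chromosome 3 (109780040 to 110144011), had a higher mean in Chd8het in 16 of the 17 types where it was tested, a number that 3.28% of the 5848 genes tested in those types reached. In Vip interneurons it was at 33.8, 25.6, 34.6 and 32.0 CPM in WT and 48.5, 64.1, 59.9 and 53.8 CPM in Chd8het, without overlap. The log2 change was 0.84 (SE 0.18, unadjusted p 0.000319, adjusted p 0.998 by edgeR; 0.0986 with the pair term). In astrocytes it was at 29.6, 39.4, 39.7 and 37.9 CPM in WT and 43.9, 79.2, 56.2 and 60.3 CPM in Chd8het, again without overlap, and the log2 change was 0.71.

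The astrocytic difference held within both astrocyte clusters, with 35.0 and 58.8 CPM in the larger and 47.1 and 70.4 CPM in the smaller for WT and Chd8het. Excitatory marker sums of astrocytes were 219.0 to 264.1 CPM in WT and 227.0 to 315.8 CPM in Chd8het, 4 of 5 genes higher. In Vip interneurons they were 66.3 to 146.5 and 123.8 to 144.2 CPM, 5 of 5 higher. The L4/5 IT marker sum averaged 2529 CPM in WT and 2421 CPM in Chd8het in astrocytes and 3527 and 3507 CPM in Vip interneurons. These sums exceeded the 1525 CPM of L2/3 IT neurons in WT, so this list does not gauge RNA of other cells in either type. The part of either list was not tested. L5 IT neurons had a log2 change of 0.42. In VLMC the log2 change was 1.095, from WT values of 2.58, 22.8, 49.0 and 34.1 CPM to Chd8het values of 33.7, 65.0, 55.1 and 66.7 CPM. It was 0.72 without WT male 1 and 0.50 with doublets kept. Marker sums in VLMC averaged 514.1 CPM in WT and 679.7 CPM in Chd8het for L4/5 IT neurons (7 of 7 genes higher), 145.1 and 194.9 CPM for Pvalb interneurons (7 of 8) and 41.3 and 60.9 CPM for the inhibitory class (4 of 5). For the excitatory class, which holds the type with the highest Ntng1, they averaged 265.0 and 286.6 CPM, with 2 of 5 genes higher and 3 lower, and the part of these lists was not tested.

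Among netrin receptors Unc5d had a higher mean in Chd8het in 18 of 19 types (3.46% of genes tested in all types). L6 CT neurons had 79.2, 64.0, 73.3 and 66.1 CPM in WT and 80.6, 121, 113 and 80.2 CPM in Chd8het, which did not overlap by a narrow margin, and the log2 change was 0.50. Within the larger L6 CT cluster Unc5d was at 54.9 to 76.0 CPM in WT and 75.5 to 110.9 CPM in Chd8het, and within the smaller at 90.9 to 104.7 and 89.6 to 153.6 CPM, so both clusters overlapped between genotypes. Microglia had 212, 172, 194 and 183 CPM in WT and 258, 271, 349 and 209 CPM in Chd8het, where Chd8het female 2 lay within the WT range. Their log2 change of 0.52 was 0.34 without Chd8het female 1. In the same microglia the 7 markers of L4/5 IT neurons summed to 766.7 to 866.2 CPM in WT and 715.2 to 1181 CPM in Chd8het, with 5 of 7 higher and none at 0; their part was not tested.

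Further Unc5d values moved with 1 library or with the assignment of nuclei. Vip interneurons had a log2 change of 0.81, with Chd8het male 2 at 315 CPM against 88.6 to 180 CPM in WT, and 0.31 without that library. OPC had 0.50, and 0.29 without the same library. VLMC had 0.65, with 3 of 4 Chd8het libraries above all WT libraries, and 0.27 when nuclei were assigned one by one. The 7 markers of L4/5 IT neurons, where Unc5d is highest, summed to 485.9 to 557.8 CPM in VLMC of WT and 447.7 to 879.4 CPM in those of Chd8het, all 7 higher on the mean; their part was not tested. Unc5c in L6 CT neurons was at 63.1, 63.1, 96.1 and 75.01 CPM in WT and 84.3, 89.0, 102 and 92.5 CPM in Chd8het, higher in all 4 pairs with overlap, a log2 change of 0.33. Its WT and Chd8het means were 71.4 and 86.6 CPM in the larger L6 CT cluster and 80.8 and 118.8 CPM in the smaller.

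Robo1 in microglia was at 114, 152, 165 and 188 CPM in WT and 172, 374, 198 and 244 CPM in Chd8het, and the groups overlapped at WT female 2. Its log2 change of 0.68 (unadjusted p 0.0126 by edgeR) was 0.34 without Chd8het male 2, the highest library. Robo1 too is highest in Pvalb interneurons, whose markers in microglia had the means of 168.4 CPM in WT and 208.8 CPM in Chd8het given with Slit2; their part was not tested.

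The remaining values by the naming rule were semaphorins and a neuropilin. Sema3a was lower in L6 CT neurons of Chd8het, at 131, 138, 94.1 and 153 CPM in WT and 90.7, 60.6, 76.8 and 109 CPM in Chd8het, lower in all 4 pairs with overlapping groups and a log2 change of -0.60 (unadjusted p 0.0147 by edgeR). Within the larger L6 CT cluster the means were 135 and 90.5 CPM, and within the smaller 77.7 and 57.3 CPM. Sema6d had a higher mean in Chd8het in 16 of 19 types, a number that 8.9% of the genes tested in all types reached; in L6 IT neurons it was at 323, 306, 338 and 303 CPM in WT and 402, 381, 375 and 354 CPM in Chd8het, which did not overlap, a log2 change of 0.25. Sema6a in L5 ET neurons had means of 69.1 and 57.1 CPM, a log2 change of -0.29. Over types it went the other way, with a log2 change above 0 in 16 of 19, the same number as Sema6d.

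Sema3e in COP was at 18.8, 40.4, 26.7 and 40.6 CPM in WT and 51.6, 59.3, 57.0 and 61.1 CPM in Chd8het, without overlap, and its log2 change of 0.82 was 0.06 when nuclei were assigned one by one. Inhibitory markers in COP summed to 18.8 to 31.1 CPM in WT and 14.7 to 69.8 CPM in Chd8het, 4 of 5 higher, while excitatory markers averaged 191.0 and 190.1 CPM, and their part was not tested. Nrp1 in VLMC was at 243, 186, 67.4 and 121 CPM in WT and 143, 155, 64.7 and 57.2 CPM in Chd8het. The groups overlapped while all 4 pairs were lower in Chd8het, and the log2 change of -0.60 was -0.26 when nuclei were assigned one by one. In the VLMC cluster led by Slc47a1, whose share of VLMC was given with Slit2, Nrp1 averaged 320.8 CPM in WT and 218.7 CPM in Chd8het, and in the other cluster 60.9 and 56.8 CPM, with overlapping groups in both.

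Of 48 partner and effector genes of the same pathways, such as collapsin response mediators, Mical enzymes and Slit-Robo GTPase activators, 0 were called in 736 tests by edgeR with the 0 percent called above, and 29 (3.94%) had an unadjusted p under 0.05, against 2.48% of all genes' tests. With the pair term 0 were called and 67 (9.1%) were under it, against 6.3%. The smallest p values belonged to Farp1, an exchange factor downstream of class A plexins, in microglia (74.2 CPM in WT, 119.6 CPM in Chd8het), to Rnd1, a plexin-binding GTPase, in L4/5 IT neurons (8.65 and 4.80 CPM), and to Chl1, a neuropilin-binding adhesion molecule, in microglia (46.6 and 72.3 CPM). Their log2 changes were 0.70, -0.81 and 0.63. The neuronal marker sums of microglia given with Slit2 and Unc5d were also higher on the mean in Chd8het, and their part in the Farp1 and Chl1 values was not tested.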

How the data were processed

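Nuclei of 8 libraries were counted by the authors, and the deposited matrices hold whole-number UMI counts per barcode for 32285 genes. Per the submitters' processing notes, STAR 2.7.9a, STARsolo and Cell Ranger were named with build mm10; for annotation, intron reads and strand, nothing is stated in the labels. The members and all gene lists were chosen with earlier results of these data known.

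Barcodes (97772) were kept with at least 500 genes and at most 5% mitochondrial UMIs (82168). Doublets were predicted by simulation as in Scrublet (4043, 4.92%) and removed. Counts were log-scaled, 3000 variable genes without members gave 40 components, and a 20-neighbour graph was divided by Leiden (leidenalg 0.10.2) into 57 clusters, of which 31 were named by at least 3 fixed markers. As an alternative each nucleus was assigned by its own marker counts, which gave 57470 nuclei a type. Of the 62792 nuclei named by cluster, 68.5% were assigned alike. By type this was 32.0% in L6 IT and 39.1% in L5 IT neurons, whose names are the least secure, and 95.8% in endothelial nuclei.

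Counts summed per library and type were fitted with edgeR 4.0.16 (quasi-likelihood, TMM scaling, filterByExpr minimum count 10, sex and genotype; two-sided), Benjamini-Hochberg adjusted per type. Summed counts per library and type ranged from 0.0999 M to 18.7 M UMIs, which limits rare types. Named members were the 20 smallest unadjusted p. Alternatives were a replicate block, DESeq2 1.42.0 size factors or Wald test, no count filter, index type added, doublets kept, nuclei assigned singly and each library left out in turn. Libraries of the same sex and number were taken as pairs: their deviations correlated over 0.1 for every pair in 18 of 20 units (r -0.104 to 0.781), and the labels state matched litters without naming pairs. Other combinations of libraries also correlated, over all nuclei up to r 0.447, where the lowest pair had 0.445. The pairs are therefore an assumption. Gene spans and overlaps came from GENCODE M21 (all 49 members matched). Scripts were tested on simulated data.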

Additional observations from a re-analysis of the deposited data

Results flagged for a closer look

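Among 138 sets of 4 libraries of a genotype (each gene in the type of its highest level and in the types where its genotype values are named), 2 held a library far from its 3 companions, where chance gives about 1 in 20. Plxnb1 in astrocytes of Chd8het stood at 174.0 CPM in female 2 against 145 to 147 CPM in the others. Sema6a in oligodendrocytes of Chd8het stood at 908.0 CPM in male 2 against 588 to 621 CPM, and WT male 2 was as high, at 912 CPM.

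For 11 genes, all 4 pairs were higher in Chd8het in 1 cell type and lower in another; the difference between types was not tested. Among genes tested in all 19 types, 6 of 10 members and 39.9% of all 2483 genes showed both directions. The log2 changes were 0.28 in Sst interneurons and -0.16 in L4/5 IT neurons for Dcc, 0.45 in OPC and -0.38 in astrocytes for Ntng2, and 0.17 in astrocytes and -0.14 in Vip interneurons for Plxna2. Robo2 had 0.29 in OPC and -0.12 in L2/3 IT neurons, and Slit3 0.18 in astrocytes and -0.27 in L6 IT neurons. Unc5c had 0.42 in microglia and -0.25 in OPC. Among semaphorins, Sema3c had 0.76 in microglia and -0.25 in Vip interneurons, Sema5b 0.93 in oligodendrocytes and -0.52 in L2/3 IT neurons, and Sema6a 0.37 in L6 IT and -0.29 in L5 ET neurons. Sema6c had 0.34 in L5 ET and -0.42 in L6 IT neurons, and Sema6d 0.29 in Pvalb interneurons and -0.43 in COP.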

How the results depend on the processing

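No log2 change of a named member or partner reversed sign in 15 alternative settings, and for Slit2 in microglia and Ntng1 in Vip interneurons it ranged from 0.85 to 1.01 and from 0.69 to 0.90. The number of member tests at an unadjusted p under 0.05 was 45 as reported (2.48% of all genes' tests), 115 with the replicate block of pairs (6.3%), 107 with index type added (5.89%), 92 of 918 without a count filter (2.74%, with 109 of all tests called), and 32 to 55 when 1 library was left out in turn (1.99 to 3.88%). Calls of members stayed at 0 by edgeR and DESeq2 except without a count filter, where 1 was made, Unc5d in Vip interneurons (1 call in that type). Of the 46 genes at 10 CPM or more in any named type, the tested type of the highest mean was kept by 44 with doublets in, 37 with nuclei assigned one by one and 46 without scaling. With doublets in, Plxnd1 and Unc5c changed their highest type. With nuclei assigned one by one, Plxna1, Plxnd1, Sema4f, Sema4g, Sema6a, Sema6b, Slit3, Unc5a and Unc5c did. Of the tested types, endothelial nuclei, COP and VLMC gave the thinnest sums, from 0.0999, 0.241 and 0.301 M UMIs per library.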

Other observations

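Unnamed clusters, which were given no cell type name, entered no comparison by type but were part of the sum over all nuclei. They held some high levels of guidance genes, as means over libraries without scaling between them. Cluster 40, 356 nuclei led by Igfbpl1, Lockd and Top2a, had 1951 CPM of Robo2, 25.6 CPM of Plxna3, 2469 CPM of Dcc, 187 CPM of Slit1, 134 CPM of Sema5b and 56.7 CPM of Plxnb1. Cluster 23, 793 nuclei led by Tshz2, Htr4 and Htr2c, had 1112 CPM of Plxna4 and 133 CPM of Ntng2. Cluster 30, 650 nuclei led by Tshz2, Htr2c and St8sia6, had 136 CPM of Robo3. Cluster 17, of whose nuclei 73.6% came from 1 library, had 1415 CPM of Slit3. On the same unscaled scale, Plxna4 in cluster 23, Robo3 in cluster 30, and Robo2 and Plxna3 in cluster 40 lay above the mean of every named type.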
